A study of Homo sapiens with 6 samples.

Results

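Mitosis and G2/M genes were compared between HepG2 cells grown on flat plates and HepG2 cells grown in a hollow fiber bioreactor. The 57 genes were taken by symbol from a list of mitotic cyclins and kinases, kinesins, kinetochore, checkpoint, spindle and cytokinesis genes. All 57 were among the 19846 genes of the deposited table, and all 57 passed the filter on low counts. HepG2 is an established human liver tumour cell line. The 2D group (3 samples) was seeded at 200000 cells per square cm in 6-well plates and grown in EMEM that was renewed every 2 days. The 3D group (3 samples) was grown among interwoven hollow fibers in a mixture of EMEM and DMEM, each making up the same share, that held 10% fetal serum. Medium passed through the bioreactor at 23.5 mL/min, and fresh medium came in at 2 mL/hour. Both groups were at passage 7 to 9 and carried no engineered change or drug that the labels name. Culture form, medium and feeding differed together and cannot be told apart. No serum share is given here for the plates and no seeding density for the bioreactor, so differences in these are unknown. Whether separate cultures stand behind the replicates is not stated in the labels, so p-values measure only the spread between these samples, which may be technical.

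Cells enter mitosis when the kinase CDK1, bound to cyclin A or cyclin B, is freed of inhibitory phosphates. Spindle microtubules then attach to chromosomes at kinetochores, a checkpoint holds the cell until attachment is complete, and the anaphase-promoting complex with CDC20 marks securin and cyclin B for destruction, which starts chromosome separation and division of the cell. Transcripts of many of these genes are most abundant in G2 and mitosis and are low in resting cells. In adult liver few cells divide and many of the genes are nearly silent, whereas tumour lines such as HepG2 keep cycling in culture.

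Many promoters of late cell cycle genes carry a cell cycle homology region (CHR), whose core TTTGAA is bound by the MuvB complex, and nearby CCAAT boxes, which are bound by NF-Y. MuvB works with RB-like proteins in resting cells and with MYBL2 and FOXM1 in dividing cells, and the last 2 factors are themselves among the genes described here. RefSeq promoter windows (build GRCh38.p14, 250 bases before to 50 bases after each transcript start) were found for 49 of the 57 genes, as 59 windows. For 6 of them the 200 bases before the start are shown in the direction of the gene, with TTTGAA and CCAAT in capitals on either strand (TTCAAA and ATTGG where the match is on the opposite strand). CCNB2, CDC20 and PLK1 are shown as genes whose levels rose in the bioreactor and whose windows hold both elements. PTTG1 had a larger fold change than these and has CCAAT without TTTGAA. MKI67 and ASPM have both elements and did not pass the test. In order, the stretches lie at chr15:59104946-59105145, chr1:43358781-43358980, chr16:23678689-23678888, chr5:160421655-160421854, chr10:128126424-128126623 and chr1:197146670-197146869, and the minus strand is printed for MKI67 and ASPM.
CCNB2: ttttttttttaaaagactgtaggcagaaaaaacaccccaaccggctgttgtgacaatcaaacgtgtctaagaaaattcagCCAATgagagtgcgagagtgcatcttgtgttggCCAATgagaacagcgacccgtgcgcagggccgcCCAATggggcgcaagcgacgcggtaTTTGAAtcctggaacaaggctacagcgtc
CDC20: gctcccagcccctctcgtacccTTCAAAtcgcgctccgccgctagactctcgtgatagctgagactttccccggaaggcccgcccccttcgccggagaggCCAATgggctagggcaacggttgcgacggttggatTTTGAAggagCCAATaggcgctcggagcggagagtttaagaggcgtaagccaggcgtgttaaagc
PLK1: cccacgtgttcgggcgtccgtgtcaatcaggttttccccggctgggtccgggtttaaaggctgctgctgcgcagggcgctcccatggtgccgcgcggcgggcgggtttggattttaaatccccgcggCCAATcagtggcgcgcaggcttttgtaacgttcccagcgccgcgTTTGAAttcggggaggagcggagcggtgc
PTTG1: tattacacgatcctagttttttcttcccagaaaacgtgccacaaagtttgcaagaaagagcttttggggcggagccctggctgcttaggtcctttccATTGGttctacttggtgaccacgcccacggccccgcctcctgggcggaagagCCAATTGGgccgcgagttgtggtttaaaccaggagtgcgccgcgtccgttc
MKI67: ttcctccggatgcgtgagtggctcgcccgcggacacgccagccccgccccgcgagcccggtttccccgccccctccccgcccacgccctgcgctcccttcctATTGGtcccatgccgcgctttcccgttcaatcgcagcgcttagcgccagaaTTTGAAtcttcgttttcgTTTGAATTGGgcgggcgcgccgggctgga
ASPM: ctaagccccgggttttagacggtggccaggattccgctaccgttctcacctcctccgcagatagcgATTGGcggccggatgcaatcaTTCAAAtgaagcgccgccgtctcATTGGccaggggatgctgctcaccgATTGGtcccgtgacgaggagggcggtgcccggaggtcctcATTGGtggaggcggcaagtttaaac
In CCNB2 the TTTGAA begins 29 bases before the start, behind CCAAT boxes at 120, 87 and 54 bases before it. In PLK1 the TTTGAA also begins 29 bases before the start, with a CCAAT at 73 bases. CDC20 has a TTTGAA 65 bases before the start between CCAAT boxes at 100 and 55 bases, and a second match on the opposite strand at 178 bases. In MKI67 the downstream TTTGAA, 29 bases before the start, shares a base with an ATTGG. The PTTG1 stretch holds a CCAAT and an ATTGG that share bases in the run CCAATTGG.

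TTTGAA was present on either strand in 38 of the 59 windows (64.4%), against 15.2% of all 35116 RefSeq windows of the same length. CCAAT was present in 44 of the 59 windows (74.6%), against 34.6% of all windows. TTTGAA together with at least 2 CCAAT matches was found in 21 of the 59 windows (35.6%) and in 1.78% of all windows. The 52 TTTGAA matches began between 247 bases before and 44 bases after the start, and 40 of them lay within 100 bases of it (76.9%, against 41.4% of the matches in all windows). The variant TTCGAA was found in 3 windows (5.08%, all windows 1.45%). Words used for E2F sites are longer and were found in fewer windows than TTTGAA or CCAAT, so each is to be read against its share of all windows. Any of TTTGGCGC or TTTCGCGC or TTTCCCGC or TTTGCCGC was found in 5 windows (8.47%, all windows 3.31%), and GGCGGGAA in 3 (5.08%, all windows 3.16%). The words GGCGGGAA and TTTCCCGC overlap when read on opposite strands, so a match can count under both. For comparison, 72 windows of 52 DNA replication genes held TTTGAA in 4 cases (5.56%) and any of the 4 E2F words in 25 (34.7%). Several windows can belong to the same gene and overlap, so windows are not independent. These matches describe letters and were not tested as binding sites.

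**Figure D1:**
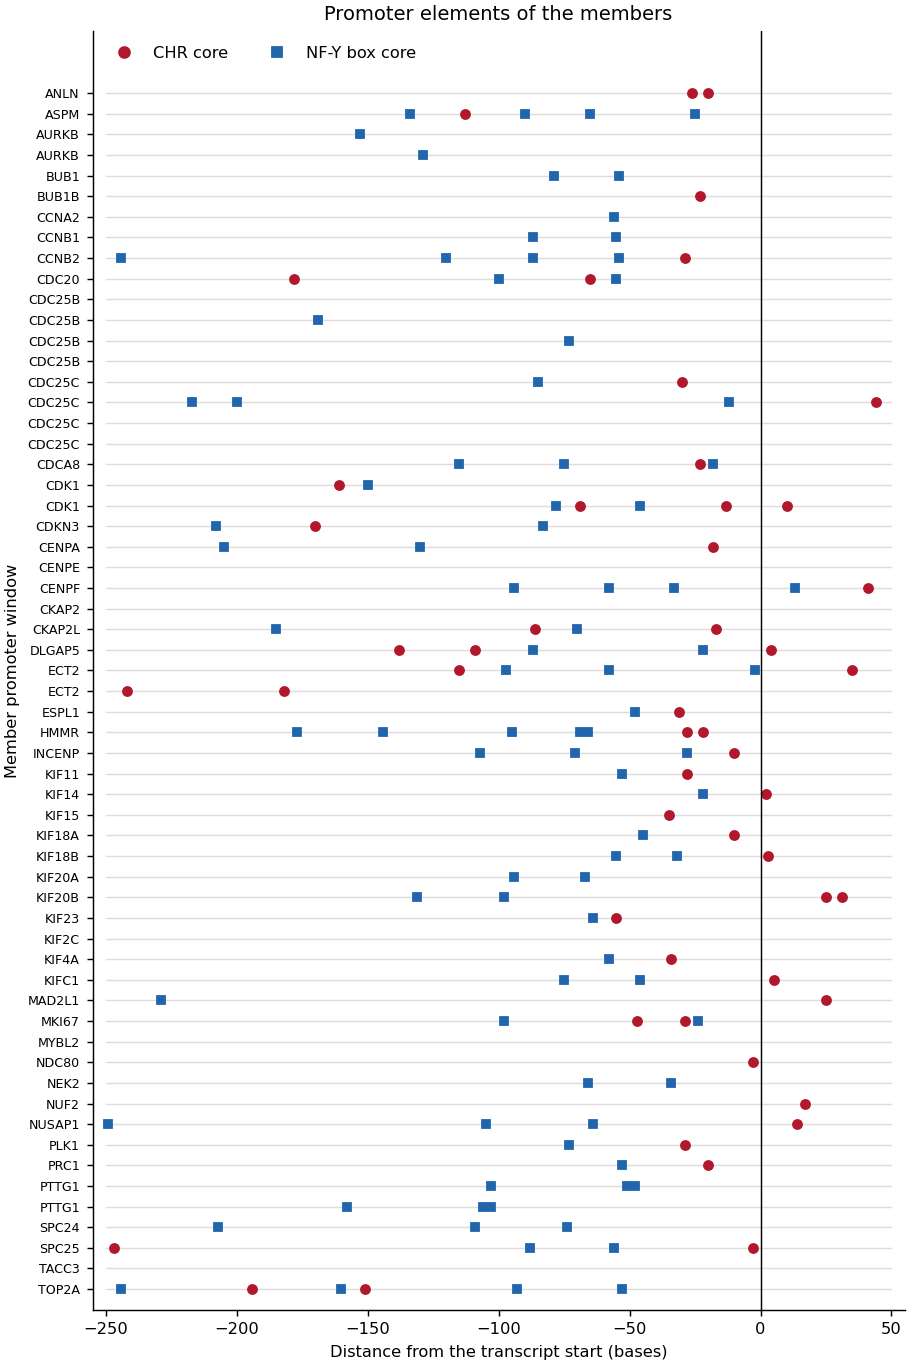
Positions of the CHR core (TTTGAA, red circles) and the NF-Y box core (CCAAT, blue squares), on either strand, in the 59 promoter windows of 49 mitosis and G2/M genes. The horizontal axis gives the distance in bases from the transcript start (vertical line), and each grey line is 1 window. Most red circles lie close to the start, with a median of 27 bases before it. The CCAAT boxes of CCNB2, PLK1 and KIF11 lie further upstream than the circle. In ASPM, TOP2A and CDKN3 some CCAAT boxes lie nearer the start than any circle of the gene.

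The libraries held between 9530795 and 17943513 counts, with the fewest in 3D replicate 1. Levels are given in CPM, counts brought to a common library total with TMM scaling, and the 3 values of a group follow the replicate numbers. The lowest count of any of the 57 genes in any library was 38 (SPC25). Liver markers were high in both groups: 10 of them, among them ALB and AFP, summed to between 31904 and 51620 CPM in every library. Of the fibroblast, endothelial and blood markers, 3 of 8, 3 of 6 and 3 of 6 were in the table, and the others were not found in it. The table holds no gene with fewer than 10 counts over the 6 libraries. Whether low counts account for the missing markers was not tested. Fibroblast markers summed to between 7.46 and 15.8 CPM in 2D and between 9.28 and 21.2 CPM in 3D, and THY1 was at most at 0.25 CPM. The 3 endothelial markers summed to between 2.00 and 5.49 CPM over all libraries. The 3 blood markers summed to between 980 and 1476 CPM in 2D and between 436 and 1015 CPM in 3D, nearly all of it LYZ, while CD14 stayed at 3.10 CPM or less. Single markers moved in both directions. Of the liver markers APOA1 and TF rose (log2 fold changes 1.39 and 0.70) and APOB fell (-1.42). Of the others COL1A1 and CD68 rose (3.43 and 2.07) and PDGFRB fell (-1.71). COL1A1 was at 1.82, 0.42 and 1.55 CPM in 2D and at 18.25, 16.9 and 6.19 CPM in 3D. CD68 was at 6.14, 9.58 and 7.16 CPM in 2D and at 22.3, 41.35 and 32.3 CPM in 3D. LYZ had a log2 fold change of -0.82 and did not pass (edgeR, adjusted p = 0.0555). Whether the cells behind these markers contributed to the differences below was not tested. In bulk RNA, fewer cells in a phase and less RNA per cell cannot be told apart.

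Of the 57 genes, 34 were higher in 3D culture and 0 were lower (edgeR, adjusted p under 0.05). Among all 15314 genes tested, 19.0% were higher and 17.6% were lower by the same rule. At an unadjusted p under 0.05, 36 of the 57 passed and 0 of these were lower. The share of all genes at that looser threshold is not given here, so this count has no background. The median log2 fold change of the 57 genes was 0.87, against 0.02 over all genes tested, and 54 of the 57 values were above 0. The values ran from -0.25 for ASPM to 2.26 for MYBL2. Every 3D library lay above every 2D library in 36 of the 57 genes (25.6% of all genes tested), and the reverse held in 0 of the 57 (24.9% of all genes tested). Of those 36 genes 32 were called, and NEK2, NDC80, NUF2 and KIF11 were not. CDC25B and ANLN were called although 1 library of each group overlapped with the other group. In the summed level of the 57 genes the 2D libraries were at 2398, 1452 and 3391 CPM and the 3D libraries at 4598, 4184 and 4037 CPM. The bioreactor samples were thus close to each other, and the plates differed among themselves by more than the gap between 2D replicate 3 and the lowest 3D library.

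**Figure D2:**
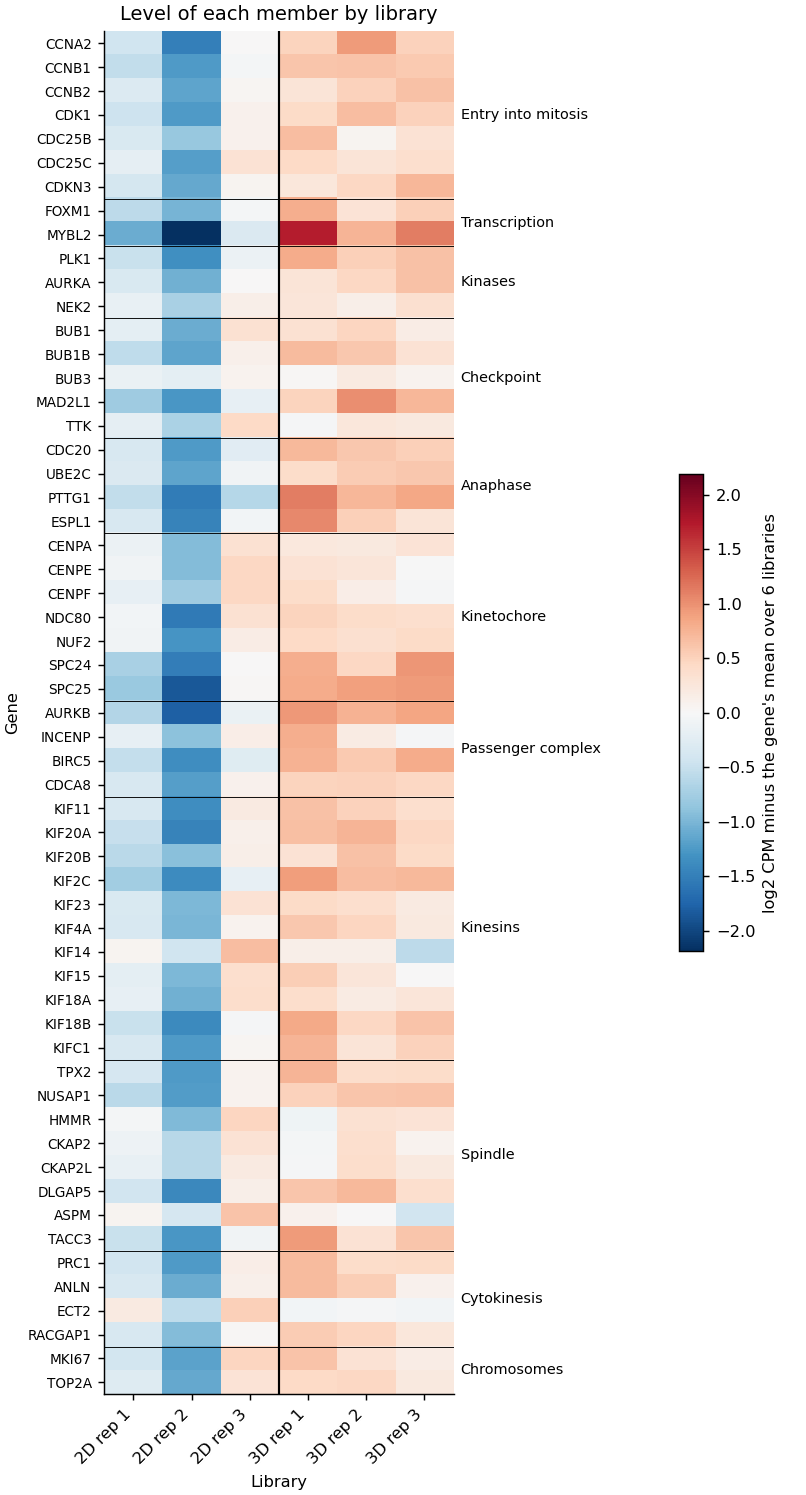
Level of each of the 57 genes in the 6 libraries, as log2 CPM minus the mean of the gene over the 6 libraries (red higher, blue lower), with genes grouped by role. The column of 2D replicate 2 is the darkest blue in nearly all rows, 2D replicate 3 is near or above the mean of most genes, and the 3 columns of 3D culture resemble each other.

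The spread within the plates followed a common pattern. In 56 of the 57 genes 2D replicate 2 was the lowest and 2D replicate 3 the highest of the plates (18.9% of all genes tested had this order), and PTTG1 was the exception. In 55 of the 57 genes 2D replicate 2 was the lowest of all 6 libraries (18.6% of all genes tested), the exceptions being KIF14 and ASPM. The ratio of 2D replicate 3 to 2D replicate 2 had a median of 2.40 and ran from 1.22 for BUB3 to 3.69 for SPC25. Between the highest and the lowest 3D library the ratio had a median of 1.25 and ran from 1.02 for ECT2 to 1.98 for MYBL2. The SD of the log2 level was larger among plates than among bioreactor samples in 57 of the 57 genes, with medians of 0.63 and 0.17, while over all genes tested the medians were 0.15 and 0.23. The highest 3D library was replicate 1 in 30 genes, replicate 2 in 17 and replicate 3 in 10. On the principal components of all genes, 3D replicate 1 stood apart from its group on the second axis (37.9 against -17.2 and -27.5, 14.1% of the variance), and no plate did.

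The number of calls depended on which library was left out. Without 2D replicate 3, in which most of these genes were highest among plates, 46 of the 57 genes were called higher (14.4% of all genes tested in that run). Without 2D replicate 2 the number was 30 (12.4% of all genes) and the median log2 fold change of the 57 genes was 0.59. Without 2D replicate 1 it was 14 (12.3% of all genes), and without 3D replicate 1 it was 15 (18.0% of all genes). Leaving out 3D replicate 2 gave 21 (17.5% of all genes) and leaving out 3D replicate 3 gave 27 (16.1% of all genes). In the run without both 2D replicate 2 and 3D replicate 1, 28 genes were called (14.2% of all genes) and the median was 0.51. No run called any of the 57 genes lower. CCNB1, FOXM1, PLK1, MAD2L1, CDC20, UBE2C, PTTG1, SPC24, SPC25, AURKB, BIRC5 and KIF2C were called in each of the 6 runs that left out 1 library. Another 12 genes that the full comparison did not call passed without 2D replicate 3 and in no other of these runs: CDC25C, NEK2, BUB1, CENPA, CENPF, NUF2, KIF11, KIF23, KIF15, KIF18A, MKI67 and TOP2A.

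Of 7 genes of mitotic entry 6 rose (19.0% of all genes tested), with a median log2 fold change of 0.89. The roles described here and below hold 2 to 11 genes each, so counts per role are coarse. CCNB1 encodes cyclin B1, which activates CDK1 at the onset of mitosis, and was at 52.5, 32.4 and 74.3 CPM in the 2D libraries and at 116, 118 and 113 CPM in the 3D libraries. All 3 bioreactor samples lay within a narrow band above every plate, and the mean was 2.18-fold higher (log2 fold change 1.12 ± 0.25, adjusted p = 0.00770). CCNA2 encodes cyclin A2, which acts in S phase and G2, and was at 52.8, 25.2 and 71.7 CPM in the 2D libraries and at 101, 137 and 102 CPM in the 3D libraries. The groups did not overlap, with 3D replicate 2 the highest library (2.27-fold, log2 fold change 1.18 ± 0.34, adjusted p = 0.0266). CDK1, the kinase itself, was at 40.8, 23.6 and 60.0 CPM in the 2D libraries and at 75.3, 89.4 and 79.3 CPM in the 3D libraries. Its lowest 3D library was above its highest plate (1.96-fold, log2 fold change 0.97 ± 0.28, adjusted p = 0.0266). CCNB2, the second B-type cyclin, was at 27.7, 15.4 and 35.3 CPM in the 2D libraries and at 41.5, 48.8 and 53.3 CPM in the 3D libraries, again without overlap (1.83-fold, log2 fold change 0.87 ± 0.26, adjusted p = 0.0265). CDC25B, a phosphatase that removes inhibitory phosphates from CDK1, was at 44.0, 31.3 and 59.1 CPM in the 2D libraries and at 88.9, 58.1 and 68.8 CPM in the 3D libraries. Here 3D replicate 2 was below 2D replicate 3, and the mean was 1.60-fold higher (log2 fold change 0.68 ± 0.23, adjusted p = 0.0437). CDKN3, a phosphatase acting on cyclin-dependent kinases, rose as well (log2 fold change 0.89 ± 0.26, adjusted p = 0.0224). CDC25C, the related phosphatase, had a log2 fold change of 0.59 (adjusted p = 0.163) and overlapping groups. EXOSC9 and FAM53C overlap CCNA2 and CDC25C on the opposite strand, at 34.1 and 53.7 CPM on average, which makes the levels of CCNA2 and CDC25C uncertain. Only CCNB1 of these 6 calls was kept in each run without 1 library. Without 2D replicate 1 the adjusted p was 0.0700 for CCNA2, 0.0839 for CDK1, 0.0686 for CCNB2, 0.118 for CDC25B and 0.0705 for CDKN3. Without 3D replicate 1 it was 0.0904 for CCNA2, 0.0845 for CDK1, 0.0593 for CCNB2 and 0.156 for CDC25B. Without 3D replicate 2 it was 0.0621 for CCNA2, 0.0687 for CDK1, 0.0648 for CCNB2 and 0.0519 for CDKN3. CDC25B also missed the threshold without 2D replicate 2 (0.115) and 3D replicate 3 (0.0809), CDKN3 without 2D replicate 2 (0.0552) and 3D replicate 3 (0.0800), and CCNB2 without 3D replicate 3 (0.0775).

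Both transcription factors of late cell cycle promoters rose (19.0% of all genes tested). MYBL2 (chr20:43667019-43716496, plus strand, hg38), which joins MuvB in dividing cells, was at 39.8, 18.6 and 68.2 CPM in the 2D libraries and at 280.3, 141 and 185 CPM in the 3D libraries. No bioreactor sample was near the plates, and 3D replicate 1 was the highest, 1.98-fold above 3D replicate 2. With a 4.78-fold higher mean, MYBL2 had the largest log2 fold change of the 57 genes (log2 fold change 2.26 ± 0.48, adjusted p = 0.0114). Without 2D replicate 1 its adjusted p was 0.0520. FOXM1 (chr12:2857681-2877155, minus strand), a forkhead factor of G2 genes, was at 45.1, 33.2 and 65.4 CPM in the 2D libraries and at 116, 82.8 and 95.8 CPM in the 3D libraries. Its groups did not overlap (2.05-fold, log2 fold change 1.04 ± 0.23, adjusted p = 0.00740). RHNO1 and ITFG2 lie over FOXM1 on the opposite strand, at 26.0 and 11.6 CPM on average, and reads of the overlap cannot be assigned where strand handling is not given.

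Among the mitotic kinases 2 of 3 rose (19.0% of all genes tested), with a median of 0.87. PLK1, which acts at centrosomes, kinetochores and the midzone, was at 106, 58.0 and 134 CPM in the 2D libraries and at 259.9, 211 and 229 CPM in the 3D libraries. Every bioreactor sample was above every plate by a wide margin (2.35-fold, log2 fold change 1.23 ± 0.26, adjusted p = 0.00693). Per kilobase of transcript PLK1 had the highest level of the 57 genes in 3D culture, 105 CPM per kb, against 44.6 CPM per kb on plates. AURKA, the kinase of spindle poles, was at 80.8, 48.9 and 102 CPM in the 2D libraries and at 124, 139.6 and 159 CPM in the 3D libraries. It rose without overlap (1.82-fold, log2 fold change 0.87 ± 0.23, adjusted p = 0.0178), and missed the threshold when 2D replicate 1 or 3D replicate 3 was left out (adjusted p = 0.0514 and 0.0578). NEK2, which separates centrosomes, had 3D libraries just above the plates (log2 fold change 0.46, adjusted p = 0.0805).

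Of 5 spindle checkpoint genes 2 rose (19.0% of all genes tested), with a median of 0.53. MAD2L1, which is built into the inhibitor that holds back CDC20, was at 28.0, 19.8 and 42.3 CPM in the 2D libraries and at 66.9, 96.6 and 79.4 CPM in the 3D libraries. The lowest bioreactor sample was well above the highest plate (2.70-fold, log2 fold change 1.43 ± 0.26, adjusted p = 0.00291). BUB1B, which encodes another part of that inhibitor, rose as well (log2 fold change 0.98 ± 0.28, adjusted p = 0.0224), with adjusted p-values of 0.0798, 0.0953 and 0.0577 without 2D replicate 1, 3D replicate 1 and 3D replicate 2. BUB1, the kinase that recruits checkpoint proteins to kinetochores, was at 37.3, 20.2 and 54.2 CPM in the 2D libraries and at 53.9, 59.2 and 48.2 CPM in the 3D libraries. Its 2D replicate 3 lay within the range of the bioreactor samples, the difference was 1.44-fold, and it did not pass (log2 fold change 0.53 ± 0.30, adjusted p = 0.200; 0.0176 without 2D replicate 3). TTK, the kinase at the head of the checkpoint, had a log2 fold change of 0.23 (adjusted p = 0.499) that was -0.019 without 2D replicate 2. BUB3, their common partner, had 0.19 (adjusted p = 0.238) and varied least between plates.

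All 4 genes of anaphase onset rose (19.0% of all genes tested), with a median log2 fold change of 1.16. PTTG1 (chr5:160421822-160428744, plus strand) encodes securin, which restrains separase until anaphase, and was at 21.8, 11.0 and 20.5 CPM in the 2D libraries and at 69.0, 52.7 and 57.2 CPM in the 3D libraries. Its plates were all low, 2D replicate 3 included, and the bioreactor samples were 3.35-fold higher on average (log2 fold change 1.74 ± 0.23, adjusted p = 0.000474), the second largest change of the 57 genes. CDC20, the activator of the anaphase-promoting complex, was at 42.1, 22.8 and 45.3 CPM in the 2D libraries and at 88.0, 81.3 and 76.8 CPM in the 3D libraries. All bioreactor samples exceeded all plates (2.23-fold, log2 fold change 1.16 ± 0.22, adjusted p = 0.00326). UBE2C, the ubiquitin-conjugating enzyme of that complex, was at 21.4, 12.1 and 25.3 CPM in the 2D libraries and at 35.4, 39.6 and 40.2 CPM in the 3D libraries, and here too the groups were apart (1.96-fold, log2 fold change 0.97 ± 0.23, adjusted p = 0.00808). ESPL1, which encodes separase, was at 16.7, 7.70 and 20.3 CPM in the 2D libraries and at 44.1, 30.6 and 25.8 CPM in the 3D libraries. Its 3D replicate 1 was the highest, and no library overlapped (2.24-fold, log2 fold change 1.16 ± 0.34, adjusted p = 0.0258). Leaving out 2D replicate 1 or 3D replicate 1 ended the call (adjusted p = 0.0622 and 0.108).

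At the kinetochore 2 of 7 genes rose (28.6%, against 19.0% of all genes tested), with a median of 0.65. With 7 genes this share is not far from that of all genes. The NDC80 complex, which grips microtubule ends, has 4 subunits, of which SPC24 and SPC25 were called and NDC80 and NUF2 were not. SPC24 was at 8.01, 4.61 and 13.2 CPM in the 2D libraries and at 22.9, 18.0 and 25.8 CPM in the 3D libraries. It rose 2.57-fold without overlap (log2 fold change 1.36 ± 0.33, adjusted p = 0.0106), and its level is uncertain because strand handling is not given. SPC25, the direct partner of SPC24, was at 4.76, 2.30 and 8.49 CPM in the 2D libraries and at 14.8, 15.7 and 16.0 CPM in the 3D libraries. It rose 2.97-fold without overlap (log2 fold change 1.57 ± 0.37, adjusted p = 0.00955), the third largest change of the 57 genes. NDC80 was at 16.9, 6.00 and 22.0 CPM in the 2D libraries and at 24.7, 23.3 and 22.6 CPM in the 3D libraries. The bioreactor samples were above all plates, yet 2D replicate 3 was within 1 CPM of the lowest of them, and the gene did not pass (log2 fold change 0.65 ± 0.38, adjusted p = 0.225). NUF2, the partner of NDC80, did not overlap between groups either and did not pass, with a log2 fold change of 0.67 (adjusted p = 0.114). CENPA, the histone variant that marks centromeres, was at 20.8, 11.7 and 28.5 CPM in the 2D libraries and at 26.7, 26.3 and 27.9 CPM in the 3D libraries. Its 2D replicate 3 was above all 3D libraries (log2 fold change 0.40 ± 0.26, adjusted p = 0.258). SLC35F6 overlaps CENPA on the same strand at 63.9 CPM. CENPE, a kinesin that carries chromosomes to the spindle equator, was at 32.5, 17.7 and 46.8 CPM in the 2D libraries and at 42.6, 41.0 and 34.1 CPM in the 3D libraries, with overlapping groups (log2 fold change 0.28 ± 0.30, adjusted p = 0.502). CENPF, a large kinetochore protein, had a log2 fold change of 0.27 (adjusted p = 0.481). Without 2D replicate 2 both turned to slightly negative values, -0.035 for CENPE and -0.00325 for CENPF.

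The chromosomal passenger complex corrects wrong attachments and guides cytokinesis. Of its 4 genes 3 were higher in 3D culture (19.0% of all genes tested), with a median of 1.12. AURKB, its kinase, was at 16.5, 7.46 and 23.1 CPM in the 2D libraries and at 49.5, 43.3 and 47.0 CPM in the 3D libraries. The groups were clearly apart, and the bioreactor samples differed little among themselves (2.96-fold, log2 fold change 1.57 ± 0.33, adjusted p = 0.00740). BIRC5, which encodes survivin, the subunit that binds chromatin, was at 72.5, 40.5 and 86.0 CPM in the 2D libraries and at 176, 154 and 183 CPM in the 3D libraries. It rose 2.58-fold with all bioreactor samples above all plates (log2 fold change 1.36 ± 0.24, adjusted p = 0.00234). CDCA8, encoding borealin, was also higher (log2 fold change 0.88 ± 0.27, adjusted p = 0.0296), though its adjusted p was 0.0824, 0.0980, 0.0684 and 0.0626 without 2D replicate 1, 3D replicate 1, 3D replicate 2 and 3D replicate 3. INCENP, the scaffold, had a log2 fold change of 0.60 (adjusted p = 0.132), and only its 3D replicate 1 was far above the plates.

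**Figure D3:**
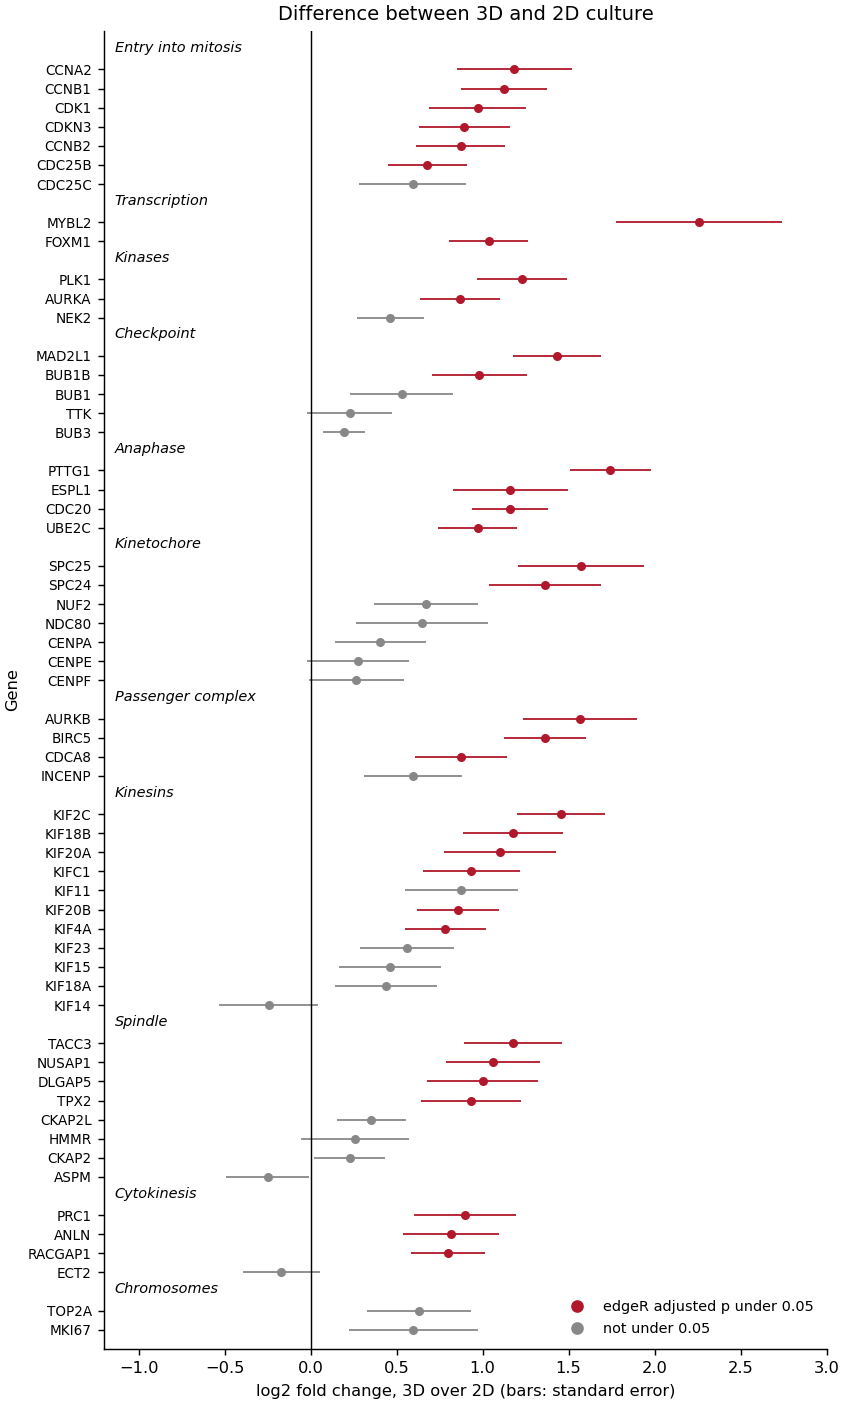
Log2 fold change of each of the 57 genes between 3D and 2D culture (horizontal axis, points), with bars of 1 standard error from the edgeR fit, grouped by role and ordered by size within a role. Red points passed an adjusted p under 0.05 (34 genes), grey points did not (23 genes), and the 3 points left of 0 are KIF14, ASPM and ECT2.

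Of 11 mitotic kinesins, motors that slide, bundle or shorten microtubules, 6 rose (19.0% of all genes tested), with a median of 0.86. KIF2C, which shortens microtubules at wrongly attached kinetochores, was at 18.7, 12.2 and 28.1 CPM in the 2D libraries and at 59.9, 50.6 and 51.7 CPM in the 3D libraries. It had the largest change of the kinesins, 2.74-fold without overlap (log2 fold change 1.46 ± 0.25, adjusted p = 0.00226). KIF20A, which brings the passenger complex to the midzone, was at 21.7, 11.2 and 33.1 CPM in the 2D libraries and at 48.2, 51.5 and 42.1 CPM in the 3D libraries. It was 2.15-fold higher with the groups apart (log2 fold change 1.10 ± 0.33, adjusted p = 0.0298), with adjusted p-values of 0.0877, 0.104 and 0.0688 without 2D replicate 1, 3D replicate 1 and 3D replicate 2. BRD8 and CDC23 overlap it on the opposite strand, at 47.4 and 38.7 CPM. KIF11, which pushes spindle poles apart, was at 38.7, 19.3 and 56.7 CPM in the 2D libraries and at 76.7, 70.5 and 63.6 CPM in the 3D libraries. Although no 3D library reached down to a plate, KIF11 missed the threshold (log2 fold change 0.88 ± 0.33, adjusted p = 0.0698), and its plates differed up to 2.93-fold. KIF18B, KIFC1, KIF20B and KIF4A were called with log2 fold changes of 1.18, 0.93, 0.86 and 0.78. Each of these 4 calls was lost without 3D replicate 1, with adjusted p-values of 0.0611, 0.122, 0.0567 and 0.100, and the last 3 also without 2D replicate 1 (0.0772, 0.0794 and 0.0790). KIFC1 also missed it without 3D replicate 3 (0.0578), KIF20B without 3D replicate 2 (0.0630), and KIF4A without 2D replicate 2 (0.0618) and 3D replicate 2 (0.0700). KIF23, KIF15 and KIF18A had log2 fold changes of 0.56, 0.46 and 0.44 and did not pass. METTL15 overlaps KIF18A on the opposite strand at 14.9 CPM. KIF14, a motor of cytokinesis, was at 21.3, 15.0 and 32.6 CPM in the 2D libraries and at 22.3, 22.4 and 13.7 CPM in the 3D libraries. Its 2D replicate 3 was the highest library and 3D replicate 3 the lowest (log2 fold change -0.24 ± 0.29, adjusted p = 0.536), and the sign turned without 2D replicate 3 (0.089). Per kilobase KIF14 had the lowest 3D level of the 57 genes, 2.68 CPM per kb.

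Among 8 other spindle proteins 4 rose (19.0% of all genes tested), with a median of 0.64. TPX2, which activates AURKA on spindle microtubules, was at 109.5, 60.0 and 151 CPM in the 2D libraries and at 236, 186 and 188 CPM in the 3D libraries. All bioreactor samples were above the plates, 1.91-fold on average (log2 fold change 0.93 ± 0.29, adjusted p = 0.0360), and the call was lost when 2D replicate 1, 3D replicate 1 or 3D replicate 2 was left out (adjusted p = 0.0919, 0.147 and 0.0532). TACC3, NUSAP1 and DLGAP5, which bind or crosslink spindle microtubules, rose with log2 fold changes of 1.18, 1.06 and 1.00. Without 3D replicate 1 their adjusted p-values were 0.0614, 0.0587 and 0.126. NUSAP1 and DLGAP5 missed the threshold without 2D replicate 1 too (0.0606 and 0.103), and DLGAP5 without 3D replicate 2 (0.0946). CKAP2L, HMMR and CKAP2 had values of 0.35, 0.26 and 0.23 and did not pass, and HMMR was at -0.062 without 2D replicate 2. ASPM, which organises spindle poles, was at 58.9, 43.8 and 87.8 CPM in the 2D libraries and at 60.5, 57.4 and 42.5 CPM in the 3D libraries. Its 2D replicate 3 was the highest library, 3D replicate 3 the lowest and the other 4 were between them. ASPM had the lowest log2 fold change of the 57 genes (log2 fold change -0.25 ± 0.24, adjusted p = 0.447), and the value was 0.049 without 2D replicate 3.

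For cytokinesis 3 of 4 genes rose (19.0% of all genes tested), with a median of 0.81. PRC1, which bundles the microtubules of the midzone, was at 43.3, 24.6 and 64.4 CPM in the 2D libraries and at 93.2, 76.4 and 77.6 CPM in the 3D libraries. The groups were apart (1.87-fold, log2 fold change 0.90 ± 0.30, adjusted p = 0.0439), and the adjusted p was 0.117, 0.162, 0.0655 and 0.0629 without 2D replicate 1, 3D replicate 1, 3D replicate 2 and 3D replicate 3. ANLN, which encodes anillin of the contractile ring, was at 47.6, 28.4 and 65.4 CPM in the 2D libraries and at 97.1, 87.3 and 64.6 CPM in the 3D libraries. Here 3D replicate 3 was just below 2D replicate 3, and the difference was close to the threshold (1.76-fold, log2 fold change 0.81 ± 0.28, adjusted p = 0.0491). The ANLN call was lost with RLE scaling (adjusted p = 0.0533) and without 2D replicate 1, 2D replicate 2, 3D replicate 1 or 3D replicate 2 (0.123, 0.0737, 0.194 and 0.105). RACGAP1, which forms centralspindlin with KIF23, rose (log2 fold change 0.80 ± 0.21, adjusted p = 0.0148), with an adjusted p of 0.0507 when 2D replicate 1 was left out and 0.0531 when 3D replicate 1 was. ECT2, the exchange factor that RACGAP1 recruits to switch on RhoA, was at 61.7, 36.8 and 77.7 CPM in the 2D libraries and at 52.1, 52.9 and 51.7 CPM in the 3D libraries. Its bioreactor samples were nearly equal and lay inside the range of the plates (log2 fold change -0.17 ± 0.23, adjusted p = 0.587; log2 fold change 0.077 without 2D replicate 3).

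Neither gene of chromosome structure passed the test. MKI67 encodes Ki-67, which coats mitotic chromosomes and is widely used to stain cycling cells. It was at 128, 75.4 and 234 CPM in the 2D libraries and at 262, 209.5 and 189.6 CPM in the 3D libraries. The 2D replicate 3 was within the range of the bioreactor samples and 2D replicate 2 was lowest by far (1.51-fold, log2 fold change 0.60 ± 0.37, adjusted p = 0.254). TOP2A, the topoisomerase that untangles sister chromatids, was at 276, 155 and 415 CPM in the 2D libraries and at 455, 461 and 391 CPM in the 3D libraries. Its 2D replicate 3 was above 3D replicate 3 (1.54-fold, log2 fold change 0.63 ± 0.30, adjusted p = 0.139), and DESeq2 called it (adjusted p = 0.0462). Without 2D replicate 3 both passed, with adjusted p-values of 0.00578 and 0.00846.

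The rest of the mitotic machinery was read from 178 genes in 9 functional lists. Of these, 76 were higher and 18 lower in 3D culture, with a median log2 fold change of 0.44. Over all genes tested the shares were 19.0% higher and 17.6% lower. The inner and outer kinetochore had 18 of 35 higher and 0 lower. ZWINT, a kinetochore adaptor, had the largest increase of these (log2 fold change 1.82 ± 0.31, adjusted p = 0.00262). G2 kinases and phosphatases had 12 of 19 higher and 1 lower. PKMYT1, which adds an inhibitory phosphate to CDK1, was among the higher ones, with a log2 fold change of 1.58 ± 0.32 (adjusted p = 0.00515). Of 8 condensin genes 5 were higher, and NCAPH, a subunit of condensin I, rose from 17.8 ± 6.19 to 48.7 ± 6.66 CPM (SD over 3 libraries). Centrosome and spindle pole genes had 15 of 33 higher and 2 lower. The anaphase-promoting complex had 6 of 17 higher and 0 lower, cytokinesis and abscission genes 6 of 19 higher and 3 lower, and other late cell cycle genes 10 of 20 higher and 3 lower.

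Cohesin and its protectors held 6 of the 18 lower genes, with 3 of 14 higher. The largest decrease among them was that of NIPBL, which loads cohesin onto DNA (115 ± 9.34 to 69.5 ± 7.51 CPM, log2 fold change -0.73 ± 0.13, adjusted p = 0.00121). After the correction for transcript length and GC content described below, 0 of these 14 were lower and 6 were higher, and NIPBL was at -0.21 (adjusted p = 0.101). DREAM and MuvB regulators had 1 of 13 higher and 3 lower, and 4 higher and 4 lower after the correction. Over all genes tested, 19.0% were higher and 17.6% lower. After the correction 2641 of 13747 genes were higher and 2337 lower. RBL2, which encodes the RB-like protein p130 of resting cells, fell from 79.7 ± 4.08 to 41.3 ± 7.91 CPM (log2 fold change -0.95 ± 0.15, adjusted p = 0.00071), and TFDP1, the partner of E2F proteins, rose from 54.7 ± 4.80 to 99.3 ± 5.36 CPM.

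DNA replication genes, which are made in an earlier phase of the cell cycle, were measured in the same libraries. Of 61 such genes 54 were higher and 0 lower (19.0% and 17.6% of all genes tested), with a median log2 fold change of 1.18. The median level of the list, as log2 CPM minus the mean of each gene, was -0.65, -0.97 and -0.23 on the plates and 0.70, 0.59 and 0.58 for the bioreactor samples. For the 57 mitosis and G2/M genes the same medians were -0.35, -1.15 and 0.10 on plates and 0.51, 0.45 and 0.37 in the bioreactor. In 2D replicate 3 the mitosis and G2/M genes were therefore above their mean while the replication genes were below theirs. In 9 of the 57 genes 2D replicate 3 was above all 3D libraries, and in 21 it was above the lowest. These 2 counts were not made for the replication genes or for all genes tested. Every 3D library lay above every 2D library in 55 of the 61 replication genes and in 36 of the 57 (25.6% of all genes tested). The difference between the lists was not tested.

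**Figure D4:**
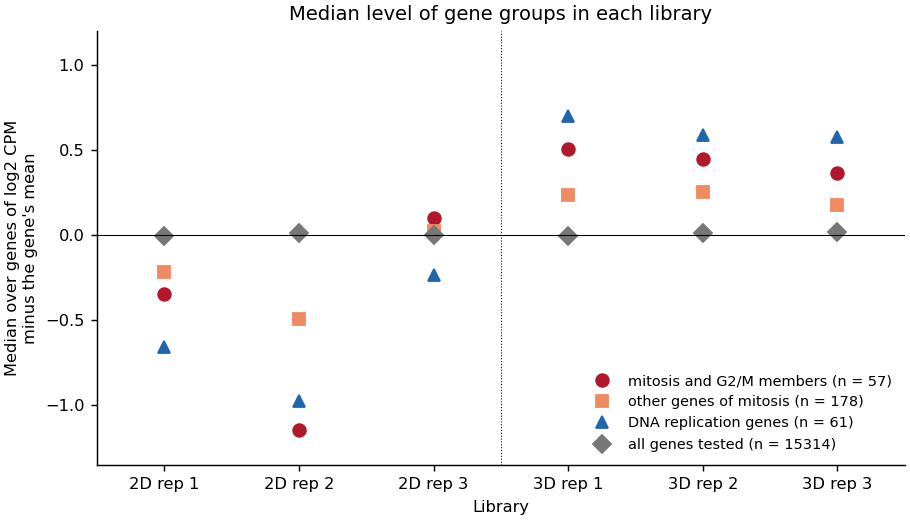
Median over the genes of a list of log2 CPM minus the mean of the gene over the 6 libraries (vertical axis), in each library, for the 57 mitosis and G2/M genes (red circles), 178 other genes of mitosis (orange squares), 61 DNA replication genes (blue triangles) and all 15314 genes tested (grey diamonds). The red circles go from -1.15 in 2D replicate 2 to 0.51 in 3D replicate 1, and in 2D replicate 3 they lie above 0 while the blue triangles lie below.

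The size of the change went with transcript length. Across the 57 genes the log2 fold change had a Spearman correlation of -0.49 with the length of the transcript and of 0.56 with its GC content, and across 13747 tested genes with both values the correlations were -0.37 and 0.31. These correlations are across genes of the same 6 libraries and genes are not independent replicates. Of the 19 shortest transcripts (850 to 2469 bases) 14 were called, of the 19 in the middle 14, and of the 19 longest (3698 to 12678 bases) 6. MKI67, ASPM, CENPF, CENPE, BUB3 and KIF14, which did not pass, were among the longest. The 6 called among the 19 longest were MAD2L1, ESPL1, KIF20B, BUB1B, KIF4A and ANLN. With a smooth correction for length and GC content in each library, 31 of the 57 genes were called higher (19.2% of all genes tested that way) and 0 lower, 27 of them also called without it. The median was then 0.90, and 10, 11 and 10 genes of the 3 length classes were called. All 57 values were above 0 after the correction, from 0.12 for ECT2 to 2.01 for MYBL2, so the negative values of ASPM (0.31), KIF14 (0.19) and ECT2 changed sign. BUB3, KIF11, CKAP2L and TOP2A passed after the correction (adjusted p = 0.00104, 0.0311, 0.0232 and 0.0401). CCNB2, CDC25B, CDKN3, UBE2C, CDCA8, KIFC1 and PRC1 no longer passed (0.0624, 0.0789, 0.0739, 0.0839, 0.0684, 0.0812 and 0.0555). The median over the 57 genes was thus as large with the correction as without it, while the calls of single genes depended on it.

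**Figure D5:**
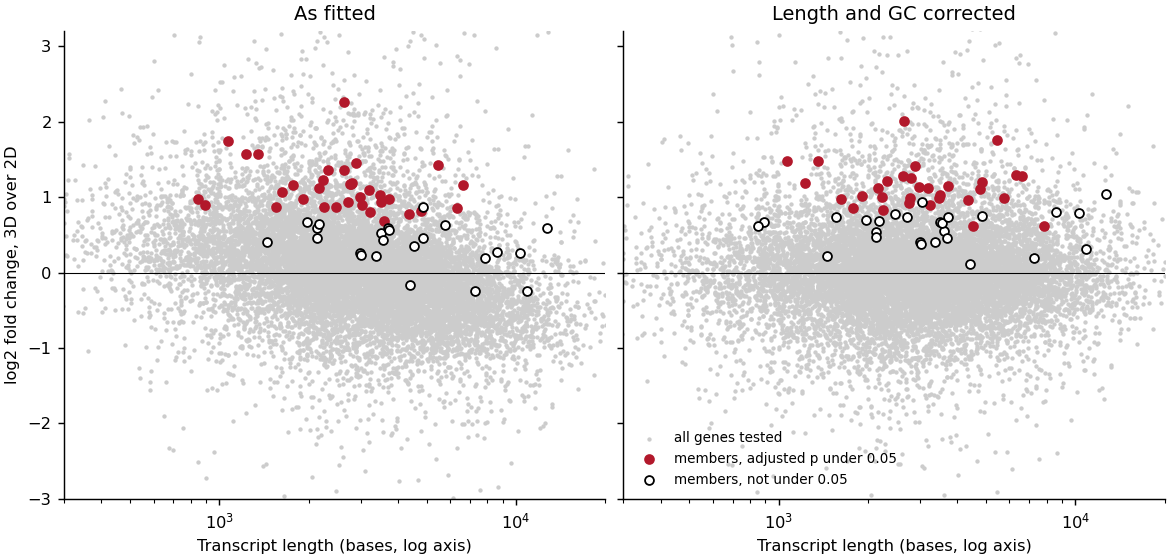
Log2 fold change between 3D and 2D culture (vertical axis, drawn from -3 to 3.2) against transcript length in bases (log axis), as fitted (left) and after the length and GC correction (right). Grey points are all genes tested, filled red points are called mitosis and G2/M genes and open points are those not called. On the left the red points are fewer among long transcripts, with 6 of the 19 longest called, and on the right called genes are spread over all lengths.

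Both promoter elements occurred in genes that rose and in genes that did not pass the test. TTTGAA was present in 18 of 28 called genes with a promoter window and in 17 of 21 that were not called. The median log2 fold change was 0.81 in genes with the element and 1.15 in those without it. For CCAAT, 23 of 28 called and 16 of 21 uncalled genes had a match, with medians of 0.88 and 0.74 with and without it. These counts are descriptions without a test, over genes that share the same 6 libraries.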

How the data were processed

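Messenger RNA of 6 HepG2 samples was measured by sequencing, and the titles of the samples gave the groups and replicate numbers. The build hg38 and the tools Partek and STAR (version 2.4.1d) are named in the submitters' processing notes. Not given in the sources used here are the annotation, how reads were counted and whether strand was used. The authors deposited a table of estimated counts per gene, of which 61.7% were whole numbers. No gene had fewer than 10 counts over the 6 libraries together. Its stop coordinate lies 1 base past the annotated gene end in most genes and was moved back by 1 throughout.

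Counts were rounded and tested with edgeR 4.0.16 under R 4.3.3. Low genes were removed by filterByExpr, libraries were scaled by TMM, and a robust quasi-likelihood model with a culture term was fitted to all 6 libraries. P-values were adjusted by Benjamini-Hochberg over 15314 genes, and an adjusted p under 0.05 made a call. Fold changes give 3D relative to 2D, and standard errors were taken from the F statistics. Log2 CPM values used a prior count of 3. A count of 3 is 0.167 to 0.298 CPM in these libraries and covers counting error only. No libraries agreed within sampling noise (chi-square per degree of freedom 11.2 to 29.5). The script was tested on simulated data.

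The genes and lists were chosen with earlier results of these data known. Values in every library were given for 30 genes chosen by role and for the 3 largest and 3 smallest fold changes, and other lists were named by up to 2 called genes per direction. Alternatives were DESeq2 1.42.0, limma-voom (limma 3.58.1), scaling by RLE, by upper quartile or with mitochondrial and the top 50 genes removed, no filter or a filter of 1 CPM in 3 libraries, a block on the replicate number, a correction by loess (span 0.5) of length and GC content of GENCODE transcripts, known for 89.8% of tested genes, and runs with libraries left out. Promoter sequences are from RefSeq, and 8 of the 57 genes had no entry.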

Additional observations from a re-analysis of the deposited data

How the results depend on the processing

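The number of the 57 genes called higher, 34 in the full comparison, was 14 to 46 when each library was left out in turn, and no setting tried called any of them lower. With DESeq2 and with limma-voom it was 35 (over all genes tested, 2803 of 17151 and 2876 of 15314 were higher). Scaling by RLE gave 33 (2862 of 15314 over all genes) and by upper quartile 34 (3074 of 15314). Keeping mitochondrial and the top genes out of the scaling gave 33 (2971 of 15314). A filter of 1 CPM in 3 libraries gave 34 (2868 of 14393), and no filter gave 27 (2807 of 19846). Calls lost in these settings were those of CCNA2, CDC25B, KIF20A, TPX2, DLGAP5, PRC1 and ANLN. Of the other 178 genes of mitosis, 18 were lower in the full comparison, 8 to 20 when each library was left out in turn, and 9 after the length and GC correction. Over all genes tested, 17.6% were lower in the full comparison and 2337 of 13747 after the correction.

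Same-numbered libraries of the groups did not deviate together (correlations of 0.053, -0.009 and -0.078 over genes), and 2D replicate 2 was closest to 3D replicate 3 (0.103), so the numbers are not taken as pairs. With the replicate number as a block 33 of the 57 genes were called, 30 of them shared with the full comparison. Over all genes tested, 2747 of 15314 were higher in that setting. With the replicate block and the length and GC correction together 44 of the 57 were called higher. Over all genes tested that way, 2435 of 13747 were higher. In the same setting 7 of the other 178 genes of mitosis were lower. The share of all genes that were lower in it is not given here, so the count of 7 has no background.

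Signs changed for genes near 0. With the length and GC correction the log2 fold change was 0.19 for KIF14, 0.31 for ASPM and 0.12 for ECT2, and with the replicate block added it was 0.24, 0.35 and 0.18. Leaving out each library in turn gave -0.49 to 0.089 for KIF14, -0.47 to 0.049 for ASPM and -0.43 to 0.077 for ECT2, with the lowest value without 2D replicate 2 and the highest without 2D replicate 3. In the same runs TTK lay between -0.019 and 0.57, CENPE between -0.035 and 0.63, CENPF between -0.00325 and 0.63 and HMMR between -0.062 and 0.62. Without both 2D replicate 2 and 3D replicate 1, CENPE was at -0.093 and CENPF at -0.12. None of these 7 genes passed the test in any setting tried, apart from CENPE and CENPF with the replicate block and the correction together (adjusted p = 0.0237 and 0.0205) and CENPF without 2D replicate 3 (0.0372). The causes were not tested. Each of the 57 genes had at least 38 counts in every library, so depth limits the precision of the lowest genes, not their detection.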
